A study of Mus musculus with 3 samples.

Results

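The genes described here build the hair shaft and the inner root sheath, the sleeve of cells that surrounds and moulds a growing hair. They were chosen by name and not by any measured value. The list held 7 inner root sheath keratins that could be analysed (Krt25, Krt26, Krt27, Krt28, Krt71, Krt72 and Krt73), the companion layer keratin Krt75, 12 shaft keratins, 3 keratin-associated proteins (KAPs), a trichohyalin group of 3 genes (Tchh, Tchhl1 and Padi3) and 7 follicle regulators (Hoxc13, Msx1, Msx2, Dlx3, Gata3, Foxn1 and Crym). Of 35 listed names, 33 were found by symbol among the 32285 features of the deposited matrices. Krt74 and Krt85 were not analysed here.

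A keratin filament is made of pairs of a type I and a type II keratin, and each layer of the follicle uses its own pairs. Dividing matrix cells at the base of a growing follicle give rise to the inner root sheath, which uses the type I keratins Krt25 to Krt28 and the type II keratins Krt71 to Krt73, and to the shaft, which uses hair keratins that are cross-linked to KAPs. Trichohyalin hardens the inner root sheath and the medulla of the shaft after the enzyme Padi3 has modified it. These genes are switched on in order as cells rise through a growing follicle, and a resting follicle lacks most of these layers.

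Full-thickness dorsal skin of wild type C57BL/6J mice, aged 8 weeks at the start, was dissociated, and the cells of each group went into 1 library of 3′ RNA-seq in droplets (Chromium v3.1), 3 libraries in all. CON skin received vehicle and no irradiation. UV skin received vehicle and, on alternate days over 12 weeks, UVA (0.60 mW/cm2) mixed with UVB (3.5 mW/cm2), and Rux skin received the same irradiation followed by a 1.5% ointment of ruxolitinib, an inhibitor of the kinases JAK1 and JAK2. Skin was taken 24 h after the last exposure. The number of mice in a library and the hair cycle stage of the sampled skin are not given in the sources used here, so a difference between libraries and a difference between groups cannot be told apart. A single library per group allows no test across samples, so p-values are not printed. Each interval is an exact one at the 95% level and covers counting error only.

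After filters the libraries held 10777 CON, 10231 UV and 9299 Rux cells, with a median of 7530, 7616 and 9443 UMIs (unique molecular identifiers, each marking 1 captured transcript). CPM are UMIs of a gene per 1000000 UMIs of the same cell set, here all retained cells of a library. The labels give female mice, but the Y-linked gene Ddx3y was present at 110, 116 and 122 CPM in CON, UV and Rux. Xist was at 0.0925, 0.121 and 0.112 CPM. All 3 libraries therefore went against the sex in the labels in the same way. Cell barcodes shared between libraries numbered 50 for CON and UV, 28 for CON and Rux and 40 for UV and Rux.

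Follicle cells were found in 7 clusters, which were made without using any of the 33 genes but named with marker lists that include some of them. Follicle cells here are those of the outer root sheath and bulge, matrix, inner root sheath and shaft. Cells like the upper follicle, 503 in CON, 234 in UV and 197 in Rux, were a separate class and count as outside the follicle clusters. Clusters are called by number. Clusters 22 and 26 led with Krt71, Krt25 and other inner root sheath genes, and the genes of dividing cells summed to 2043 CPM in cluster 22 against 188 CPM in cluster 26. Cluster 12 led with Krt35 and Krtap8-1 of the shaft but also held many cells rich in inner root sheath keratins. Clusters 6 and 8 carried Lef1, a gene of the matrix, with Dlx2, the histone gene Hist1h1b and Krt28. Clusters 10 and 33 led with genes of the outer root sheath and bulge such as Lgr5 and Krt15.

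The follicle clusters held 2264 cells of CON, 1471 of UV and 1067 of Rux, which were 21% (20.2% to 21.8%), 14.4% (13.7% to 15.1%) and 11.5% (10.8% to 12.1%) of all cells. Their makeup differed between libraries. Cluster 8 supplied 26.4% of the follicle UMIs in CON against 9.84% in UV and 7.73% in Rux. Cluster 26 supplied 1.66%, 7.89% and 14.4%, and cluster 33 supplied 0.575%, 1.70% and 9.90%. Cluster 10 supplied 17.9%, 10.4% and 5.55%. Cluster 22, of the inner root sheath, supplied 7.39%, 14.7% and 14.5%. Clusters 6 and 12 differed by smaller factors, cluster 6 at 35.5%, 40.1% and 29.1% and cluster 12 at 10.6%, 15.3% and 18.8%. A level summed over follicle cells therefore mixes clusters in different proportions, and values within clusters are given beside it.

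Each of the 33 genes had over 50% of its UMIs in follicle cells, which themselves carried 36.7% of all UMIs. For 28 genes the share was over 80% and for 25 it was over 90%. Some of the 33 were in the marker lists that named the follicle clusters, so their shares are not independent of that naming. Cluster 12 had the highest level of 16 genes and cluster 26 of 10. The 8 genes at or under 90% were Krt83 (52.4%), Gata3 (53.6%), Msx1 (59.9%), Krt32 (67.2%), Crym (72.7%), Krt81 (81.4%), Msx2 (85.7%) and Foxn1 (89.5%). The shaft keratin Krt83 was highest in lymphocyte-like (LYM-like) cells at 112 CPM against 37.3 CPM in cluster 12. Krt81 was highest in neutrophil-like (NEU-like) cells at 25.8 CPM against 15 CPM in cluster 12, and Krt83 was at 68.8 CPM in NEU-like cells. NEU-like cells numbered 50 in CON, 22 in UV and 224 in Rux. A single Rux cell of cluster 12 held 269 of the 361 Krt81 UMIs of all libraries. For these 2 keratins the highest level was thus outside the follicle. Gata3, a transcription factor of the inner root sheath lineage that is also used by skin epithelium and T cells, was highest in suprabasal keratinocyte-like (KS-like) cells at 275 CPM and reached 230 CPM in LYM-like cells.

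**Figure D1:**
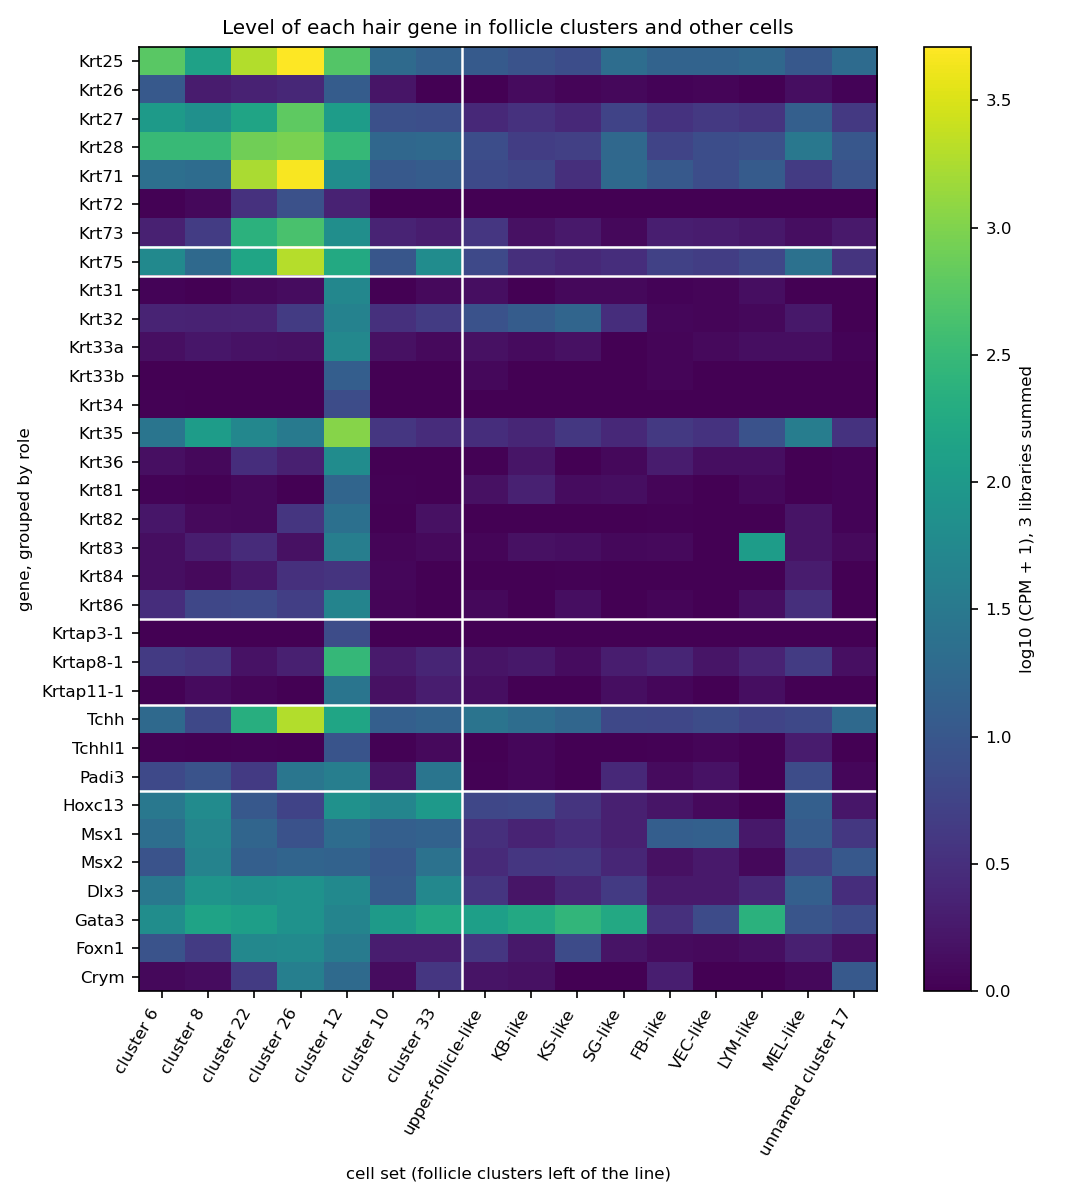
Heatmap of log10(CPM + 1), libraries summed, for the 33 genes (rows, grouped by role) in the 7 follicle clusters, left of the line, and in other cell classes. Brighter colours are higher levels. Inner root sheath genes are brightest in clusters 26 and 22 and shaft genes in cluster 12, while Krt83, Gata3 and Msx1 also show signal outside the follicle. NEU-like cells, where Krt81 was highest, are not among the columns.

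Within the follicle the genes were layered by role. Krt25 and Krt71, the most abundant type I and type II keratins of the inner root sheath, reached 5127 and 4695 CPM in cluster 26 and 1945 and 1760 CPM in cluster 22. Krt28 was spread over more clusters, at 912 CPM in cluster 26, 801 CPM in cluster 22 and 319 CPM in cluster 8. Krt75, of the companion layer between inner and outer root sheath, and Tchh were at 1955 and 1895 CPM in cluster 26. In cluster 12 the shaft keratin Krt35, a cuticle and lower cortex keratin, was at 1076 CPM and Krtap8-1 at 299 CPM, and the other shaft keratins were far lower, from 61.9 CPM for Krt36 to 2.59 CPM for Krt84. Levels in the shaft cluster depended on how cells were grouped: the summed shaft genes were at 1758 CPM there and at 4327 to 4658 CPM in the shaft clusters of 5 other filters or clusterings.

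Free RNA from broken cells gives UMIs in cells that do not express a gene, and fibroblast-like (FB-like) cells served as its measure. Krt25 was at 14.3 CPM in FB-like cells, 359-fold under cluster 26, and Krt71 at 9.83 CPM, 478-fold under. In FB-like cells Krt25 was at 5.59, 17.1 and 15.9 CPM in CON, UV and Rux and Krt71 at 2.63, 12.7 and 10.8 CPM. CON was thus under UV and Rux in this background, as in the follicle levels of both keratins given next. From UV to Rux both keratins were lower in FB-like cells and higher in follicle cells. The part of the background in the follicle levels was not tested. Krt28 showed no such difference in FB-like cells, at 5.36, 4.77 and 4.43 CPM.

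Inner root sheath and shaft genes lie in compact runs in the mm10 genome. Krt25 to Krt28 lie on the minus strand of chromosome 11 between 99315516 and 99374903, and the type I shaft keratins Krt31 to Krt36 lie farther along it between 100011195 and 100105626. The type II genes lie on chromosome 15, Krt71 to Krt73 between 101733949 and 101802346, Krt75 between 101563345 and 101573904, and the shaft keratins Krt81 to Krt86 between 101459061 and 101550667. Krtap8-1 and Krtap11-1 are on chromosome 16 and Krtap3-1 on chromosome 11. The files identify Krt25 as ENSMUSG00000035831, Krt28 as ENSMUSG00000055937, Krt71 as ENSMUSG00000051879, Krt73 as ENSMUSG00000063661, Krt75 as ENSMUSG00000022986, Krt35 as ENSMUSG00000048013 and Tchh, on chromosome 3, as ENSMUSG00000052415.

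RefSeq promoters of 300 bases (250 before and 50 after the gene start, GRCm38.p6) were given for 25 of the 33 genes. The letters TATAAA, on either strand, were in 15 of the 18 keratin and KAP promoters (83.3%) against 14.2% of all 27025 promoters. On the gene's own strand and starting 45 to 15 bases before the start, a window chosen after the data were in hand, TATAAA was in 12 of 18 (66.7%) against 2.48% of all, and in 0 of 4 regulator promoters. The core of the LEF/TCF motif, CTTTG, was in 13 of 18 (72.2%) against 54.0%, TTATNG in 13 of 18 (72.2%) against 24.9%, and TTTAT in 17 of 18 (94.4%) against 40.9%, all on either strand. TTTAT read on the other strand lies inside every TATAAA, so these 2 counts overlap. A match is a description of the letters and not of a bound site.

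The 150 bases directly before the gene start are shown for 5 genes whose levels are compared below and which share the TATAAA at 29 or 30 bases before the start, and for Krt75, which has none. TATAAA is in capitals. All are on the minus strand of GRCm38.p6 and read 5′ to 3′. Krt25 is at chr11:99322952-99323101, Krt28 at chr11:99374904-99375053, Krt73 at chr15:101802361-101802510, Krt31 at chr11:100050552-100050701, Krtap8-1 at chr16:89487953-89488102 and Krt75 at chr15:101573905-101574054.
Krt25: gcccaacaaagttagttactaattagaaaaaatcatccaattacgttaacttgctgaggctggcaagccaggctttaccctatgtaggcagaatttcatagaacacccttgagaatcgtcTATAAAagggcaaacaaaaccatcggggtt
Krt28: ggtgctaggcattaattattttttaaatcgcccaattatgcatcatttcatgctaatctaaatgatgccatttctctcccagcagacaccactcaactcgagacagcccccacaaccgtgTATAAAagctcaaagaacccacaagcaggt
Krt73: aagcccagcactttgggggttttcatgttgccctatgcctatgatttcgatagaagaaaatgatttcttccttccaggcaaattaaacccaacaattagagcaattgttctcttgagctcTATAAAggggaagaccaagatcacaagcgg
Krt31: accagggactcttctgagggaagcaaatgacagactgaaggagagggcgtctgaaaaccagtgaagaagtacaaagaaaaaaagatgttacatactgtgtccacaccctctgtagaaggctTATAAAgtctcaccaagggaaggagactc
Krtap8-1: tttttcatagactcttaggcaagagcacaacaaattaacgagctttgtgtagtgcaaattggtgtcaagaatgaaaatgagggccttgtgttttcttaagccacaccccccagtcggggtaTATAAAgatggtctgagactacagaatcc
Krt75: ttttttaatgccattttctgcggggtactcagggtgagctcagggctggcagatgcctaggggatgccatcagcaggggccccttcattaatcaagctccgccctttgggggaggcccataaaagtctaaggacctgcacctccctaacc

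The first comparison asked how these genes differed between UV-exposed and control skin. In follicle cells, most genes of the differentiating layers were higher in UV than in CON. Among the 30 genes with at least 10 UMIs in both libraries together, 19 were at least 2-fold higher in UV, where 11.8% of all such features were, and 1 was at least 2-fold lower, where 3.92% of all features were. The median log2 ratio of the 30 genes was 1.33 against 0.00 for all features. By role, 5 of 7 inner root sheath keratins, Krt75, 6 of 10 shaft keratins, 2 of 2 KAPs, 3 of 3 genes of the trichohyalin group and 2 of 7 regulators were past 2-fold higher.

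The type I keratin Krt25 was at 256 CPM in CON, 1296 CPM in UV and 1491 CPM in Rux. UV was 2.34 log2 units over CON (2.32 to 2.37), and Rux stood above both. The type II keratin Krt71 was at 101, 761 and 1075 CPM, and UV was 2.92 log2 units over CON (2.88 to 2.96). Both genes were lowest in CON and highest in Rux. Krt27 followed at 66.2, 170 and 171 CPM (1.36, 1.31 to 1.42, UV over CON), with UV and Rux side by side. Krt26 was at 2.38, 10.4 and 5.44 CPM, the only inner root sheath keratin with its highest level in UV, and the scarce Krt72 was at 0.560, 1.30 and 1.37 CPM.

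Among the inner root sheath keratins, Krt28 and Krt73 differed least between UV and CON. Krt28, a type I partner in the inner root sheath, was at 282 CPM in CON, 418 CPM in UV and 443 CPM in Rux, a UV over CON log2 ratio of 0.56 (0.53 to 0.60). Krt73, the type II keratin of the inner root sheath cuticle, was at 45.6, 57.9 and 116 CPM, a UV over CON log2 ratio of 0.35 (0.27 to 0.42). Krt28 was thus under 2-fold apart in UV and CON while its neighbour Krt25 was far apart.

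Summed over the 7 keratins of the inner root sheath, follicle cells of CON, UV and Rux had 754 CPM (747 to 761), 2714 CPM (2699 to 2730) and 3303 CPM (3283 to 3324). UV was 1.85 log2 units over CON. As sampled, type I UMIs per type II UMI were 4.13 in CON, 2.31 in UV and 1.77 in Rux, so type II keratins made up more of the sum in both irradiated libraries. With every library given the same mixture of clusters, as set out below, UV over CON log2 ratios of type I were 1.12 for Krt25, 0.76 for Krt27 and 0.20 for Krt28. Those of type II were then 1.22 for Krt71 and −1.12 for Krt73, so type II keratins were not higher as a set. The part of cluster makeup in the ratio of summed UMIs was not tested. Over all retained cells the summed keratins were at 356, 1000 and 903 CPM, and the UV over CON log2 ratio was 1.49.

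Krt75 was at 37.7, 225 and 478 CPM in follicle cells, 2.58 log2 units (2.52 to 2.64) higher in UV than in CON. Tchh was at 32.6, 194 and 451 CPM, 2.57 log2 units (2.50 to 2.64) higher in UV. Both were lowest in CON and highest in Rux. Few cells held most of Tchh, 50% of its UMIs lying in 13 CON, 3 UV and 5 Rux cells, and without the 5 top cells of each library it was at 13.7, 64.5 and 204 CPM in the same order. Padi3, which converts arginines of trichohyalin, was at 5.14, 11.5 and 25.3 CPM in the same order. Tchhl1, a relative of trichohyalin, had 1 UMI in CON, 32 in UV and 128 in Rux, and the UV over CON log2 ratio was 5.07 with a counting interval from 3.05 to 10.98.

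Among the shaft keratins Krt35 was the most abundant, at 113 CPM in CON, 193 CPM in UV and 331 CPM in Rux, and UV was 0.77 log2 units over CON (0.72 to 0.82). Krt31, a keratin of the cortex, was at 1.73, 11.1 and 12.9 CPM, 2.68 log2 units (2.39 to 3.00) higher in UV than in CON. Krt33a was at 1.29, 9.14 and 20 CPM and Krt36 at 2.65, 12.4 and 18.0 CPM, both lowest in CON. Krt86 (6.04, 8.76 and 15.1 CPM), Krt82 (0.560, 1.40 and 12.8 CPM), Krt83 (1.45, 3.27 and 18.1 CPM) and Krt84 (0.311, 0.866 and 1.60 CPM) had the same order of libraries. Krt32, a cuticle keratin, did not. It was at 4.39 CPM in CON, 1.78 CPM in UV and 21.9 CPM in Rux, and was the gene more than 2-fold lower in UV than in CON (−1.29, −1.69 to −0.93). Single cells carried these levels. Without the cell with most Krt32 in each library, that gene was at 2.41, 1.71 and 6.69 CPM, and UV over CON was −0.49. Without the 5 cells of each library with most Krt32, it was at 1.66, 1.52 and 1.91 CPM. UV over CON was then −0.12 (−0.59 to 0.34) and Rux over UV 0.33 (−0.21 to 0.87). Without the 5 cells of each library with most Krt33a, that gene was at 0.515, 0.435 and 0.329 CPM, so CON was no longer lowest. Treated alike, Krt31 had 0, 9 and 8 UMIs, and Krt36 was at 0.796, 7.74 and 9.35 CPM.

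Krtap8-1, a glycine- and tyrosine-rich KAP, was at 4.09, 39.6 and 131 CPM, and UV was 3.27 log2 units over CON (3.09 to 3.47). Without the 5 cells of each library with most Krtap8-1 it was at 0.562, 14.2 and 22.6 CPM. Krtap11-1 was at 0.451, 2.84 and 12.2 CPM, and without its own 5 top cells in each library at 0.172, 0.169 and 1.24 CPM. The 3 KAPs summed to 4.56 CPM in CON, 42.5 CPM in UV and 147 CPM in Rux. Shaft keratins and KAPs together were at 136, 284 and 618 CPM, a UV over CON log2 ratio of 1.06.

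**Figure D2:**
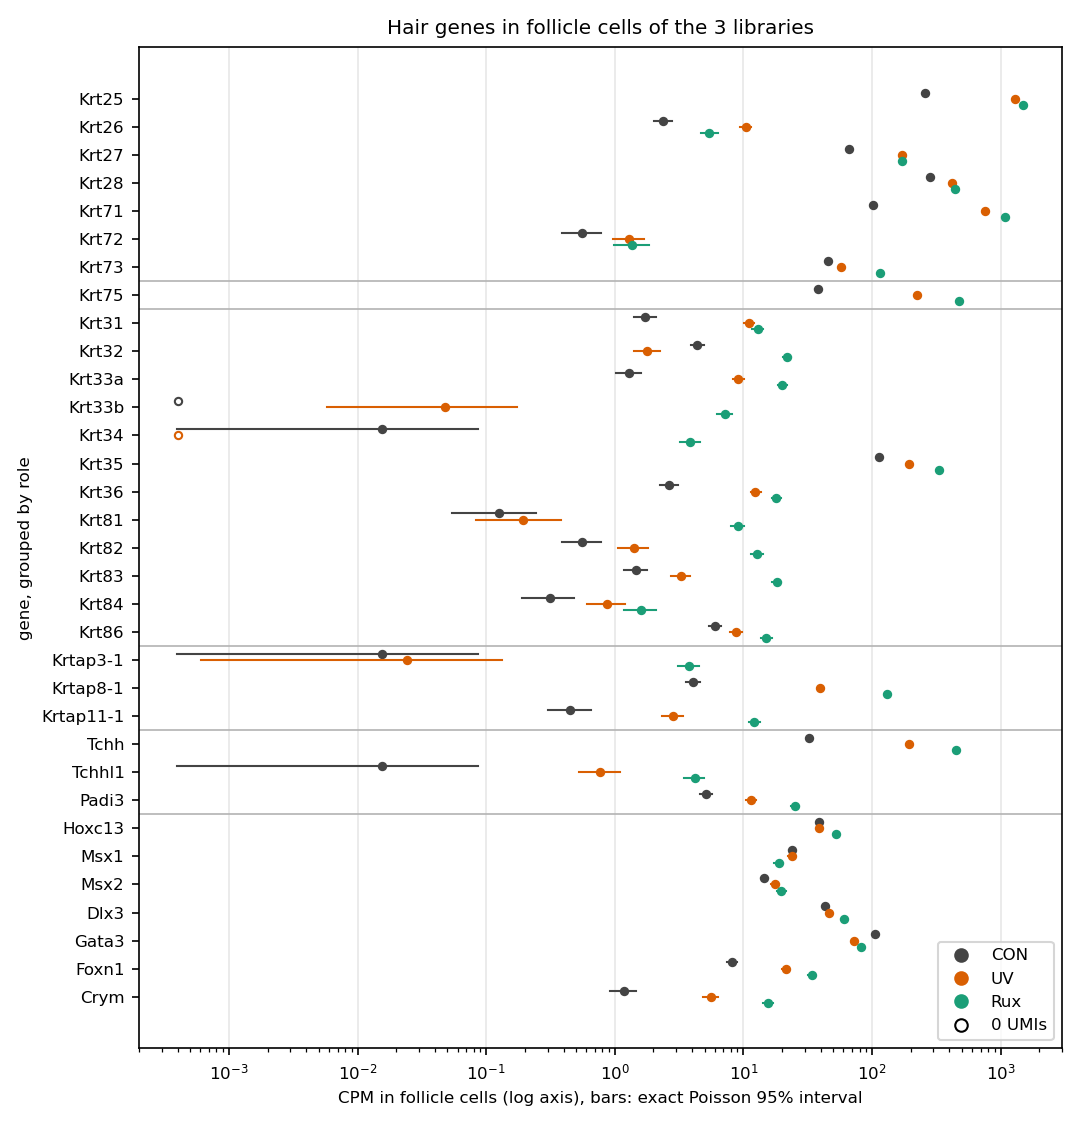
CPM in follicle cells on a log axis for each of the 33 genes, with CON in grey, UV in orange and Rux in green; bars are exact 95% Poisson intervals and open circles mark 0 UMIs. CON is the lowest library for most keratins, KAPs and trichohyalin genes, while Hoxc13, Msx1, Msx2, Dlx3 and Gata3 lie close together.

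The regulators differed little by comparison. Their sum was 234 CPM in CON, 227 CPM in UV and 283 CPM in Rux, and the UV over CON log2 ratio was −0.05. Hoxc13, a homeobox factor that acts on hair keratin genes, was at 38.6, 38.9 and 52.8 CPM (0.01, −0.08 to 0.10, UV over CON). The homeobox genes Msx1, Msx2 and Dlx3 are used in matrix and shaft precursors. Msx1 was at 23.8, 23.9 and 18.8 CPM, Msx2 at 14.5, 17.5 and 19.7 CPM and Dlx3 at 43.1, 46.6 and 60.2 CPM, and each was under 2-fold apart between any 2 libraries. Gata3 was highest in CON, at 105 CPM against 72.7 CPM in UV and 81.9 CPM in Rux, a UV over CON log2 ratio of −0.53 (−0.59 to −0.47). Foxn1, the factor missing in nude mice, was at 8.16, 21.3 and 33.9 CPM (1.38, 1.23 to 1.54, UV over CON). Crym, a thyroid hormone-binding protein, was at 1.17, 5.56 and 15.4 CPM (2.25, 1.87 to 2.65). Foxn1 and Crym were the 2 regulators past 2-fold higher in UV as sampled. With every library given the same mixture of clusters, as set out below, Foxn1 was at 12.7, 18.2 and 25.9 CPM. Its UV over CON log2 ratio was then 0.51, so it was no longer past 2-fold, while Crym still was. Within clusters, Foxn1 was past 2-fold higher in UV in clusters 6 and 8 but not in clusters 12, 22 and 26.

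Within single clusters the difference in Krt25 and Krt71 was smallest where these keratins were highest. Krt25 was at 203 CPM in CON, 929 CPM in UV and 907 CPM in Rux in cluster 6, and at 54.1, 333 and 325 CPM in cluster 8, UV over CON log2 ratios of 2.19 and 2.62. In cluster 22 it was at 978, 2374 and 2388 CPM (1.28). In cluster 26, where it was highest, it was at 4499, 5318 and 5138 CPM (0.24). Krt71 went from 2920 CPM in CON to 4992 CPM in UV in cluster 26 (0.77), against 563 and 2240 CPM in cluster 22 (1.99). CON and UV were thus nearest each other for both keratins in cluster 26, which held 50 CON, 149 UV and 171 Rux cells. Krt35 went the other way there, at 214 CPM in CON, 7.02 CPM in UV and 7.44 CPM in Rux, but its 228 CON UMIs lay in 4 cells. In cluster 12, where most of it was found, Krt35 was at 604, 1063 and 1646 CPM (0.82 UV over CON and 0.63 Rux over UV).

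The share of genes past 2-fold also depended on the cluster. In cluster 6, 10 of 23 were at least 2-fold higher in UV than in CON (10.3% of all features) and 2 were lower (4.57%). In cluster 8, 8 of 21 were higher (13.0%) and 1 was lower (3.50%). Cluster 12 had 14 of 29 higher (8.03%) and 1, Krt32, lower (5.55%). Cluster 22 had 6 of 20 higher (8.30%) and 2, Krt73 and Padi3, lower (5.15%). In cluster 26 only 3 of 19 were higher, Krt75, Hoxc13 and Crym (7.88%), and 3 were lower, Krt73, Krt35 and Krt86 (8.42%). Cluster 26 was the cluster in which as many were lower as higher, but several of these rested on few UMIs or cells. In CON and UV there, Hoxc13 had 1 and 15 UMIs and Krt86 had 15 and 12. Crym had 15 CON UMIs in 2 cells and Krt35 had 228 in 4 cells.

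When every library was given the same mixture of clusters, an alternative added after the data were seen, the summed inner root sheath keratins were at 1295, 2306 and 2250 CPM and UV was 0.83 log2 units over CON, in place of 1.85. The trichohyalin group was 0.78 and the shaft keratins and KAPs 0.73 log2 units higher in UV. Then 12 of 30 genes were past 2-fold higher (12.6% of all features at equal makeup) in place of 19, and 2, Krt32 and Krt73, were past 2-fold lower (3.14%) in place of 1. Each of these summed ratios was smaller at equal makeup than as sampled, and each remained above 0.

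Among the inner root sheath keratins, Krt73 and the scarce Krt72 turned direction at equal makeup. Krt72 was then at 1.17 CPM in CON and 1.07 CPM in UV. Within cluster 26 Krt73 was at 874 CPM in CON, 410 CPM in UV and 351 CPM in Rux, and UV was lower by a log2 ratio of −1.09 (−1.22 to −0.97). In cluster 22 it was at 354, 144 and 244 CPM, a log2 ratio of −1.29 (−1.41 to −1.17). At equal makeup Krt73 was at 101 CPM in CON, 46.7 CPM in UV and 72.6 CPM in Rux, against 45.6, 57.9 and 116 CPM as sampled. Within both inner root sheath clusters CON was therefore the library with the most Krt73 and the least Krt71.

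Gata3 was lower in UV than in CON in clusters 6, 8, 12, 22 and 26, with log2 ratios of −0.51, −0.41, −0.64, −0.64 and −0.90. None of the 5 reached 2-fold. In the outer root sheath and bulge clusters it was not lower, at 102 CPM in CON and 109 CPM in UV in cluster 10 and at 92.0 and 182 CPM in cluster 33, which held 23 CON cells.

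Ratios between 2 keratins in the same cells do not depend on the total of the library, though capture can differ between genes, so a ratio is compared across libraries and not read as a ratio of proteins. Krt25 UMIs per Krt28 UMI were 0.906 (0.887 to 0.926) in CON follicle cells, 3.1 (3.05 to 3.16) in UV and 3.37 (3.30 to 3.43) in Rux. In cluster 8 they were 0.167 (0.156 to 0.180), 1.04 (0.967 to 1.13) and 1.10 (0.996 to 1.23). In cluster 26 they were 5.55 (5.16 to 5.97), 5.36 (5.16 to 5.57) and 5.86 (5.66 to 6.06). The balance of these 2 type I keratins thus differed between CON and the irradiated libraries in cluster 8, and CON lay between UV and Rux in cluster 26. Clusters 6, 12 and 22 had CON at 0.782, 0.633 and 1.30 against UV at 2.46, 2.75 and 3.11.

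Among the type II keratins, Krt71 UMIs per Krt73 UMI were 2.21 (2.12 to 2.31) in CON, 13.1 (12.6 to 13.7) in UV and 9.25 (8.94 to 9.58) in Rux follicle cells. Cluster 22 had 1.59, 15.5 and 9.74, and cluster 26 had 3.34, 12.2 and 14.0. Here CON was lowest in cluster 26 as well. In cluster 12 the ratio was 1.11 in CON, 4.15 in UV and 0.357 in Rux, so that Rux there was under CON.

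**Figure D3:**
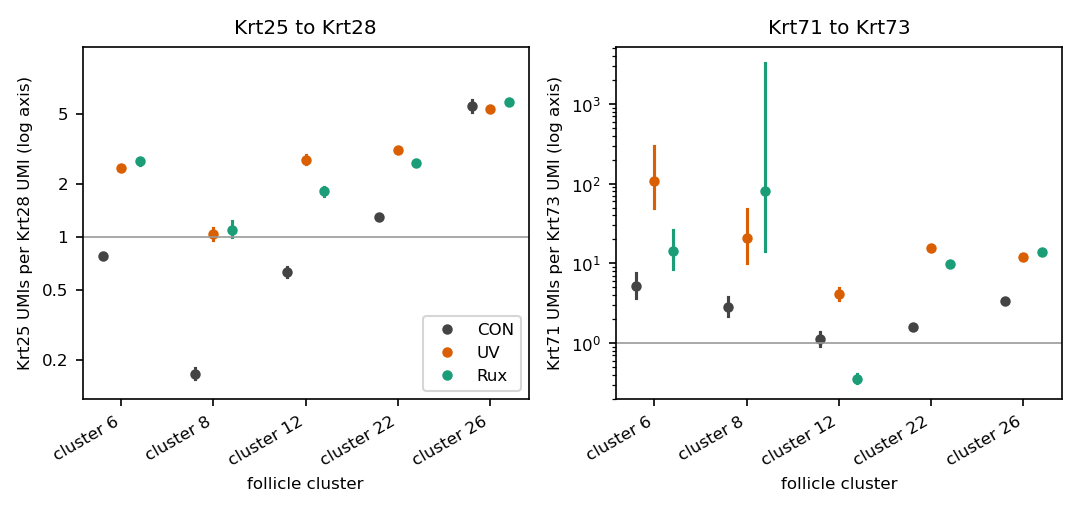
Krt25 UMIs per Krt28 UMI (left) and Krt71 UMIs per Krt73 UMI (right) on log axes in clusters 6, 8, 12, 22 and 26 for CON (grey), UV (orange) and Rux (green), with exact 95% intervals as bars and a line at a ratio of 1. CON lies under UV for Krt71 per Krt73 in each cluster and for Krt25 per Krt28 in clusters 6, 8, 12 and 22, while in cluster 26 the latter is 5.55, 5.36 and 5.86.

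Near-identical sequence could move reads between members. For each gene the 451 windows of 50 bases in the last 500 bases of its transcript were searched for in all other transcripts. Of these, 27 of Krt27 and 1 of Krt28 were also in Krt25, 27 of Krt31 were in Krt33b and 13 of Krt33b in Krt31, 7 of Krtap3-1 were in other Krtap3 genes and 14 of Msx2 were in many genes. The other 27 genes, Krt25, Krt71, Krt73, Krt75, Krt35 and Tchh among them, had no such window. Values of Krt27, Krt31, Krt33b, Krtap3-1 and Msx2 are uncertain to that extent.

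The second comparison set ruxolitinib against vehicle in irradiated skin. In follicle cells, the shaft genes, Krt75 and the trichohyalin group were higher in Rux than in UV, and the inner root sheath keratins were close. Of 33 genes, 16 were at least 2-fold higher in Rux (3.38% of all features) and 0 were at least 2-fold lower (6.35%), and the median log2 ratio was 0.88 against −0.05 for all features. By role, 7 of 12 shaft keratins, 3 of 3 KAPs and 3 of 3 genes of the trichohyalin group were past 2-fold higher, beside Krt75, 1 of 7 inner root sheath keratins (Krt73) and 1 of 7 regulators (Crym). The UV library enters both this comparison and the first, so their values are given side by side. Against CON, 27 of 33 were higher in Rux (11.7%) and 0 lower (7.57%), with a median of 2.54 against −0.04 for all features. With genes at 0 UMIs in a library set to the lower bounds given below, both medians are the same.

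Krt25 was 0.20 (0.18 to 0.22), Krt27 0.01 and Krt28 0.08 (0.05 to 0.12) log2 units apart in Rux and UV. Krt71 was 0.50 (0.48 to 0.52) and Krt73 1.01 (0.93 to 1.08) higher in Rux, and Krt26 was lower (−0.93, −1.20 to −0.68). Summed inner root sheath keratins were 0.28 log2 units higher in Rux, and with equal makeup of clusters the ratio was −0.04. Over all retained cells, where the median feature was −0.11, it was −0.15. Neither sum was far from the middle of all features.

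Krt75 was 1.09 log2 units (1.05 to 1.12) higher in Rux than in UV and Tchh 1.22 (1.18 to 1.26). In cluster 26 Krt75 was at 1605 CPM in UV and 2500 CPM in Rux (0.64), and Tchh at 1623 and 2254 CPM (0.47). In cluster 12, where 17 of 33 genes were at least 2-fold higher in Rux than in UV (5.11% of all features), Tchh was at 63.1 and 414 CPM (2.71). Tchh was thus higher in Rux than in UV in both clusters, and Krt75 in cluster 26. In cluster 22, where Tchh was at 211 CPM and Krt75 at 153 CPM over all libraries, neither was 2-fold apart in Rux and UV. The same held for Krt75 in cluster 12, where it was at 179 CPM over all libraries. In clusters 8, 10 and 33 Tchh was at 9.29, 17.1 and 16.9 CPM in UV and 7.17, 15.9 and 12.2 CPM in Rux, with overlapping intervals. Krt75 went from 37.4 to 48.1 CPM in cluster 8 and from 5.09 to 8.22 CPM in cluster 10. In cluster 33 it went from 189 to 39.2 CPM, and 1 UV cell there held 115 of 134 UMIs. At equal makeup of clusters the Rux over UV log2 ratios were 0.46 for Krt75, 0.62 for Tchh, 0.65 for Padi3 and 0.64 for Krt73, so that these were no longer past 2-fold, and 11 of 33 genes were (2.93% of all features) in place of 16, namely 6 shaft keratins, the 3 KAPs, Tchhl1 and Crym. Krtap8-1 was 1.73 log2 units (1.64 to 1.81) higher in Rux and at 31.6, 237 and 683 CPM in cluster 12, lowest in CON and highest in Rux.

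Some shaft genes were nearly absent from CON and UV. Krt33b had 0, 2 and 219 UMIs in follicle cells of CON, UV and Rux, a Rux level at least 153-fold over CON by the limit that 0 UMIs allow (3 counts). Krt34 had 1, 0 and 119 UMIs, at least 53.7-fold over UV. Krtap3-1 had 1, 1 and 115 UMIs, and Krt81 had 8, 8 and 278. Most of these counts came from a single Rux cell, which held 219 of all 239 Krt33b UMIs of its library (91.6%), 117 of 122 for Krt34 (95.9%), 114 of 118 for Krtap3-1 (96.6%) and 269 of 327 for Krt81 (82.3%). That cell had 13453 UMIs, of which 3360 (25.0%) came from shaft keratins and KAPs and 1 from an inner root sheath keratin. It had 1458 UMIs of Krtap8-1 and 0 of Krt35. Without the cell of each library with most UMIs of a gene, follicle cells had 0, 1 and 0 UMIs of Krt33b. Treated alike, Krt34 had 0, 0 and 2 UMIs, Krtap3-1 had 0, 0 and 1, and Krt81 had 7, 6 and 9. The lower bounds for Krt33b and Krt34 thus rested on that Rux cell. These genes are also among those past 2-fold higher in Rux at equal makeup of clusters.

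Shaft genes were in general carried by few cells. The 5 cells with the most shaft UMIs held 17.4% of them in CON, 29.4% in UV and 42.1% in Rux, and 50% of all shaft UMIs lay in 41, 12 and 8 cells. For the inner root sheath keratins 50% lay in 126, 85 and 35 cells. Without the 5 top cells of each library, an alternative added after the data were seen, shaft keratins and KAPs were 0.84 log2 units higher in UV than in CON in place of 1.06, and 0.81 higher in Rux than in UV in place of 1.12. Of 30 genes with enough UMIs, 10 were then at least 2-fold higher in Rux than in UV (3.25% of all features) in place of 16, and 2, Krt31 and Krt33a, were at least 2-fold lower (6.34%) in place of 0. The regulator Gata3, by contrast, had 50% of its UMIs in 520, 210 and 195 cells.

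The 15 cells of that kind were all in cluster 12, and they differed in which shaft genes they held. They were read by eye after their values were seen. In 5 of them Krt31, Krt33a and Krtap8-1 were high and Krt32 was at 0. The first CON cell had 104, 39 and 210 UMIs of these, the first 2 UV cells had 181, 102 and 224 and 187, 204 and 298, and the first 2 Rux cells had 175, 376 and 1458 and 143, 222 and 1057. In 3 others the cuticle keratins Krt32 and Krt82 were high, at 127 and 25 UMIs in a CON cell, 59 and 25 in a Rux cell and 467 and 155 in another Rux cell, and Krtap8-1 had 0, 0 and 1 UMI. In the other 7, Krt35 was the most abundant shaft gene at 171 to 497 UMIs. Krt35 was also the most abundant in the first UV cell, at 398 UMIs. The same held in the CON cell with 127 Krt32 UMIs (274 of Krt35) and the Rux cell with 59 (1282). These readings therefore overlap. No UV cell among the 15 had a UMI of Krt32, and Krt32 was at 2.51 CPM in cluster 12 of UV against 28.2 CPM in CON and 108 CPM in Rux. The Rux cell with 59 Krt32 UMIs had 153399 UMIs in all and 213 of inner root sheath keratins. It had passed the doublet filter (Scrublet scores), and whether it is a doublet was not tested further.

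**Figure D4:**
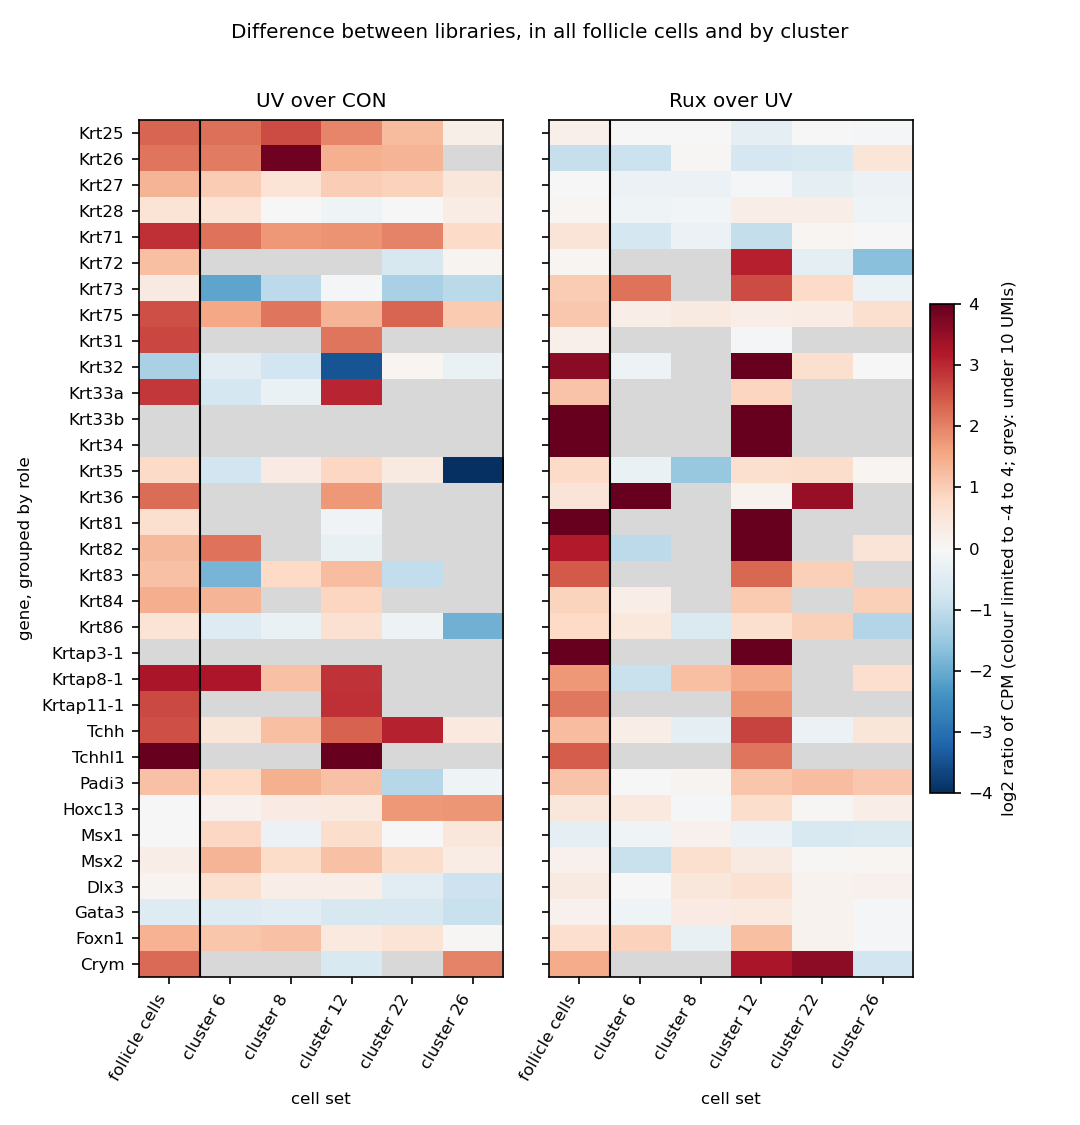
Heatmap of log2 ratios, UV over CON and Rux over UV, for the 33 genes in all follicle cells and in clusters 6, 8, 12, 22 and 26, with colours limited to −4 and 4 and grey where the libraries had under 10 UMIs together. UV over CON is mostly higher in clusters 6, 8 and 12 and mixed in cluster 26, with Krt73 lower in clusters 6, 8, 22 and 26, while Rux over UV is strongest for shaft genes in cluster 12.

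To count cells rather than UMIs, a cell was taken as high in inner root sheath keratins at 10 or more of their UMIs and high in shaft genes at 10 or more UMIs of shaft keratins and KAPs. These are ranges of a count and not cell types. Cells high in inner root sheath keratins were 988 of CON, 894 of UV and 564 of Rux, which were 9.17% (8.63% to 9.73%), 8.74% (8.20% to 9.30%) and 6.07% (5.59% to 6.57%) of all cells. Of these, 437, 144 and 101 lay near the limit, at 10 to 19 UMIs. CON thus had as many such cells as UV, but with fewer of these UMIs in each, a median of 22.0 against 54.0 in UV and 54.0 in Rux. Cells with 100 or more numbered 81 in CON, 259 in UV and 190 in Rux.

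The most abundant inner root sheath keratin of these cells differed between libraries. It was Krt28 in 639 of 988 CON cells, in 176 of 894 UV cells and in 109 of 564 Rux cells. It was Krt25 in 261, 557 and 329 and Krt71 in 47, 132 and 109. Krt28 was detected in 98.9%, 97.4% and 96.1% of the cells and Krt25 in 78.5%, 97.2% and 95.7%. At least 10 UMIs of type II keratins were present in 13.3% (11.2% to 15.5%) of CON, 31.1% (28.1% to 34.2%) of UV and 36.7% (32.7% to 40.8%) of Rux cells. Within clusters these shares were 1.96%, 4.57% and 1.19% in cluster 6 and 2.45%, 2.91% and 5.77% in cluster 8. They were 5.88%, 12.7% and 12.0% in cluster 12, 53.6%, 76.5% and 79.5% in cluster 22 and 78.0%, 91.4% and 86.2% in cluster 26. Rux was thus above UV in clusters 8 and 22 and under it in clusters 6, 12 and 26. Most cells of this range in CON thus had Krt28 as their main inner root sheath keratin, and most in UV and Rux had Krt25.

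The places of these cells differed as well. In CON 357 were in cluster 6, 286 in cluster 8, 136 in cluster 12, 140 in cluster 22 and 41 in cluster 26. In UV the numbers were 328, 103, 165, 170 and 116, and in Rux 168, 52, 108, 117 and 109. As medians over the cells, markers of basal keratinocytes summed to 53.0, 28.0 and 27.0 UMIs markers of fibroblasts to 9, 13.0 and 10.0 UMIs, markers of sebaceous gland cells to 3, 7 and 8 UMIs and markers of suprabasal keratinocytes to 3, 1 and 2 UMIs, and their part in the result was not tested. Shaft keratins and KAPs together had a median of 0 UMIs in these cells in each library.

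Cells high in shaft genes were fewer, 172 in CON, 122 in UV and 94 in Rux, or 1.60% (1.37% to 1.85%), 1.19% (0.991% to 1.42%) and 1.01% (0.818% to 1.24%) of cells. Their number was therefore lowest in Rux although the shaft UMIs were highest there. In CON 61 of them were in cluster 12 and 67 in cluster 8, whereas in Rux 70 were in cluster 12 and 4 in cluster 8. Cells high in both sets numbered 70, 46 and 47. Of epithelial cells alone, cells high in inner root sheath keratins were 26.1%, 44.3% and 34.3%, and cells high in shaft genes were 4.41%, 5.93% and 5.45%, so the order of the libraries depended on the denominator.

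**Figure D5:**
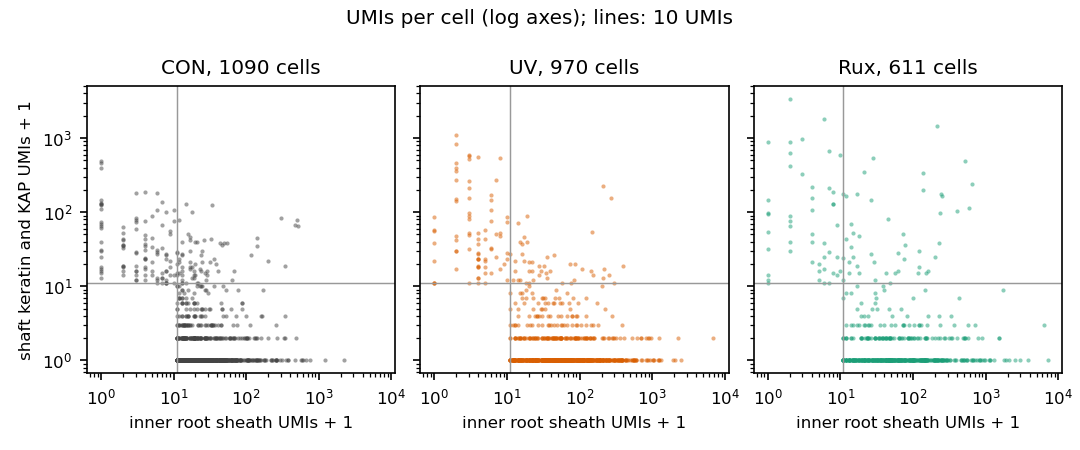
Shaft UMIs plus 1 against inner root sheath keratin UMIs plus 1 on log axes for each cell with 10 or more UMIs of either kind (1090 CON, 970 UV and 611 Rux cells), with lines at 10 UMIs. UV and Rux have more cells beyond 100 inner root sheath UMIs than CON (259 and 190 against 81). Cells high on both axes number 70, 46 and 47 in CON, UV and Rux, against 172, 122 and 94 high in shaft genes.

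Depth had to be set equal to compare shares of cells with a UMI. After each follicle cell was thinned to 2000 UMIs, which left out 18, 31 and 15 shallower cells, Krt25 was detected in 16.4%, 48.5% and 40.2% of CON, UV and Rux cells (46.6%, 73.7% and 65.3% before thinning). Krt71 was detected in 5.79%, 20.2% and 21%, and Krt75 in 4.85%, 16.1% and 23.3%. Krt28, in contrast, was detected in 32.4%, 38.1% and 36.5%, and Krt35 in 8.90%, 8.96% and 7.41%. FB-like cells, thinned alike, had Krt25 in 1.32%, 3.58% and 2.95% and Krt35 in 0.740%, 0.600% and 0.821%, so both lay above that background. Krt35 was thus found in a like share of follicle cells in each library while its summed level was highest in Rux.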

How the data were processed

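UMI counts per gene and cell of full-thickness dorsal skin were analysed for 3 libraries, 1 per group. The deposited counts were made by the authors with Cell Ranger against mm10, without further filter or normalization. The file headers give version 7.0.0 and the labels 6.1.2, and the labels list Seurat 5.3.0.

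Cells needed 200 genes or more and no more than 10% of UMIs from mitochondria, and the highest Scrublet scores (scanpy 1.11.5) were removed at 0.8% per 1000 cells (1269 CON, 1128 UV and 923 Rux cells). Seurat 5.3.0 (R 4.3.3) clustered the libraries together with LogNormalize, 2000 variable genes other than the 33, 30 principal components and resolution 1.5, without batch correction. A cluster took a name from at least 3 markers detected in 10% of its cells, and otherwise stayed unnamed.

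UMIs were summed per library and cell set and scaled to CPM. Log2 ratios had 0.5 UMI added, with exact conditional binomial intervals, and were read for features with at least 10 UMIs in the 2 libraries. Shares have Clopper-Pearson intervals. Follicle cells of CON, UV and Rux carried 64247531, 41554713 and 30685309 UMIs, so that 0 UMIs allows up to 0.0467, 0.0722 and 0.0978 CPM. Python 3.11.15, numpy 2.4.6, scipy 1.17.1, pandas 2.3.3 and matplotlib 3.10.9 were used, and gene coordinates came from GENCODE M21. The intervals were tested on simulated data.

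All 33 genes were named, those with most UMIs of a role with values in each library, as were the 10 other genes most like the inner root sheath sum and the 10 most like the shaft sum across clusters (at least 50 CPM in a cluster), and genes of the fixed lists where needed. Genes and lists were chosen with earlier results of these data known. Protein features were not analysed here, since no protein table was given. Alternatives were other filters, no doublet removal, resolution 0.8, clustering with the 33 genes, other scalings and other limits for high cells.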

Additional observations from a re-analysis of the deposited data

How the results depend on the processing

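No paired analysis was possible because each group had 1 library, and for the same reason no library could be left out in turn. The UV over CON log2 ratio of inner root sheath keratins over all cells (1.49) was 1.47 with the loose filter of at most 20% mitochondrial UMIs, 1.43 with doublets kept and 1.14 when each cell weighed the same (equal weight), and that of shaft genes (0.63) was 0.51 with the strict filter (500 genes, 5%), 0.44 without doublet removal, 0.13 with equal weight and 0.40 without the 5 top cells. In follicle cells the former (1.85) was 1.79 without doublet removal, 1.83 with median-of-ratios scaling, 1.76 with equal weight and 0.83 at equal makeup of clusters, and the latter (1.06) was 0.96 with the strict filter, 0.98 without doublet removal, 0.89 with equal weight, 0.84 without the 5 top cells and 0.73 at equal makeup. The 19 genes past 2-fold became 12 at equal makeup.

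For Rux over UV, the inner root sheath keratins over all cells (−0.15) were at −0.19 with the strict filter, −0.12 without doublet removal, −0.04 with median-of-ratios scaling and −0.26 with equal weight. In follicle cells (0.28) they were at 0.32 without doublet removal, 0.32 with median-of-ratios scaling, 0.04 with equal weight and −0.04 at equal makeup, so this direction turned. Shaft genes over all cells (0.70) were at 0.80 with the strict filter, 0.81 with median-of-ratios scaling, 0.81 with equal weight and 0.42 without the 5 top cells. In follicle cells (1.12) they were at 1.27, 1.16, 0.98 and 0.81 under the same 4 settings and 0.80 at equal makeup. The 16 genes past 2-fold became 10 without the 5 top cells.

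Cells high in inner root sheath keratins (9.17% of CON, 8.74% of UV, 6.07% of Rux) were 11.9%, 10.1% and 7.36% at a limit of 5 UMIs, 5.11%, 7.33% and 4.98% at 20 UMIs, 26.1%, 44.3% and 34.3% of epithelial cells, and 10.5% of CON and 9.54% of UV cells with the strict filter. The order of CON and UV thus turned at 20 UMIs and over epithelial cells. Cells high in shaft genes (1.60%, 1.19% and 1.01%) were 2.56%, 1.81% and 1.45% at 5 UMIs, 0.928%, 0.733% and 0.742% at 20 UMIs, and 4.41%, 5.93% and 5.45% of epithelial cells. The summed inner root sheath keratins in the clusters named for them (7409 CPM) were at 7453 CPM with the strict filter, 5320 CPM with the loose filter, 4963 CPM without doublet removal, 7224 CPM at resolution 0.8 and 5804 CPM with the 33 genes among those used to cluster, and shaft genes in their clusters (1758 CPM) at 4380, 4521, 4329, 4658 and 4327 CPM.

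Single genes turned direction where ratios were small. Over all cells with equal weight per cell, Krt28 (0.20) and Krt35 (0.39) were at −0.13 and −0.08 for UV over CON, and Krt71 (0.06) at −0.11 for Rux over UV. Gata3 Rux over UV (−0.06) was 0.01 with the strict filter, 0.05 with median-of-ratios scaling and 0.19 with equal weight. In follicle cells the regulators UV over CON (−0.05) were at 0.06 at equal makeup. For Rux over UV, Krt25 (0.20) was at −0.03 with equal weight and −0.06 at equal makeup, Krt28 (0.08) at −0.02 under both, and Krt71 (0.50) at −0.01 at equal makeup. For UV over CON, Krt73 (0.35) was at −1.12 at equal makeup. Of 592 log2 ratios under alternatives, 26 moved by a factor of over 1.5. The alternatives of equal makeup and without the top cells were chosen after seeing the data. With 1 library per group, counting error is the only error measured, and genes with few UMIs such as Tchhl1, Krt84 and Krt72 are limited by depth.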

Other observations

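Genes outside the list that followed its pattern across clusters were named by the correlation of log2(CPM + 1) over 45 clusters, which share libraries and depth, among 9586 genes. Most like the summed inner root sheath keratins were Tgm6 (Pearson r = 0.84), a transglutaminase, S100a3 (0.83), Prr9 (0.76), Gm49425 (0.75), Gm12446 (0.74), Myo5b (0.73), Foxe1 (0.72), the desmoglein Dsg4 (0.71), Fgf5 (0.71) and Dlx2 (0.69). Most like the shaft genes were S100a3 (0.75), Gm49425 (0.70), Tgm6 (0.69), Dsg4 (0.69) and the metallothionein Mt4 (0.66), followed by Edaradd (0.64), E2f2 (0.63), Supt4a (0.62), Hist1h1b (0.60) and Hmgb2 (0.60).

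Of 33 other hair differentiation genes with enough UMIs in follicle cells, 7 were at least 2-fold higher (11.8% of all features) and 4 at least 2-fold lower (3.92%) in UV than in CON. Higher were, among others, the transcription factor Foxq1 at 2.61 CPM in CON, 33.2 CPM in UV and 46.2 CPM in Rux, the transglutaminase Tgm3 at 1.63, 8.71 and 13.0 CPM, and Krt87 at 3.18, 9.84 and 13.5 CPM. The 4 lower genes are signals and factors of the matrix and bulge. Shh was at 22.5, 5.56 and 1.99 CPM, its receptor Ptch1 at 186, 78.1 and 55.5 CPM, Wnt10b at 15, 6.95 and 5.02 CPM and Lhx2 at 253, 94.8 and 72.0 CPM, and each was highest in CON and lowest in Rux. Lhx2 is among the leading genes of clusters 8 and 10, which supplied less of the follicle UMIs in UV and Rux, and the part of this makeup in the 4 differences was not tested. In Rux over UV, 4 of 32 were higher (3.38% of all features) and 1 was lower (6.35%). S100a3 was at 154, 101 and 530 CPM and Vsig8 at 3.47, 1.88 and 20 CPM, both lowest in UV.

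The other KAP genes summed to 16.2 CPM in CON, 29.6 CPM in UV and 105 CPM in Rux, with 5 of 8 measured genes at least 2-fold higher and 1 lower in UV over CON (11.8% and 3.92% of all features) and 10 of 13 higher and 1 lower in Rux over UV (3.38% and 6.35%). These shares stand beside the next counts too. No top cell was left out for the sum and counts of other KAP genes, although 1 Rux cell held 96.6% of the Rux UMIs of the listed Krtap3-1. The part of single cells in them was not tested. The outer root sheath and bulge list summed to 5004, 3074 and 3675 CPM, with 1 gene higher and 3 lower of 12 in UV over CON. The dividing cell list of 9 genes summed to 1590, 1244 and 991 CPM and had 0 genes past 2-fold in either comparison. The pigment cell list of 6 genes was at 75.4, 95.8 and 28.1 CPM in follicle cells, and 6 of 6 were at least 2-fold lower in Rux than in UV. Melanocyte-like cells, a class outside the follicle clusters, numbered 140 in CON, 58 in UV and 30 in Rux. The part of their number and of free RNA in these values was not tested. The dermal papilla list was at 2401, 2100 and 2325 CPM in an unnamed cluster of 261 CON, 263 UV and 95 Rux cells.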
